A study of Mus musculus with 8 samples.

Results

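Pomc, Cartpt and Npy encode peptides of the arcuate nucleus that act on feeding, and their transcripts were followed in mouse hypothalamus in streptozotocin diabetes with and without leptin. The 3 genes were taken by name, with every probe of the array that the platform's probe table assigns to them. They have 4 probes among 25697, and 3 genes among 16593 with a probe. Pomc and Npy have 1 probe each (ILMN_2745802 and ILMN_2946520). Cartpt has 2, called here the first probe (ILMN_2719755, the brighter) and the second probe (ILMN_3123063).

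Tissue blocks of the hypothalamus came from male mice of mixed strain, 12 to 15 weeks old, and were measured on 8 Illumina bead arrays, 1 for each sample. Saline controls are replicates 4 and 5 (n = 2). Mice with type 1 diabetes induced by intraperitoneal streptozotocin (STZ), a toxin of insulin-producing beta cells, are replicates 1, 2 and 3 (n = 3). Mice with the same diabetes and a continuous leptin infusion, given centrally per the series' design text, are replicates 6, 7 and 8 (n = 3), and no group received leptin without STZ. The labels do not say whether an array held RNA of 1 animal or of a pool, so the tests below speak of the spread among these samples alone, which may be technical. In a block of tissue, fewer cells of a type and less RNA per cell cannot be told apart.

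In the arcuate nucleus, leptin is known to act on neighbouring sets of neurons with opposed effects on appetite. Pomc encodes proopiomelanocortin, a precursor cut into alpha-MSH, which acts on melanocortin receptors to lower food intake, and into beta-endorphin. Cartpt encodes the precursor of cocaine- and amphetamine-regulated transcript peptides, which lower food intake and are made in Pomc neurons as well as in other hypothalamic nuclei. Npy encodes neuropeptide Y, which raises food intake and is made in arcuate neurons together with the melanocortin antagonist agouti-related peptide. Pomc is also a major transcript of corticotrophs and melanotrophs of the pituitary gland, which lies just below the hypothalamus.

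The 250 bases before the start of each gene are given first because the windows show what sequence lies in front of the 3 transcripts whose levels follow. The sequences are those of RefSeq on mouse build GRCm38.p6, written 5′ to 3′ on the strand of the gene, and all 3 genes were matched by symbol. Pomc spans chr12:3954945-3960643, Cartpt chr13:99898483-99910179 and Npy chr6:49822710-49829507. The Cartpt window lies inside the annotated span of its gene, which reaches further upstream. Capitals mark the longest match to a searched motif.
Pomc promoter, chr12:3954695-3954944 (+ strand): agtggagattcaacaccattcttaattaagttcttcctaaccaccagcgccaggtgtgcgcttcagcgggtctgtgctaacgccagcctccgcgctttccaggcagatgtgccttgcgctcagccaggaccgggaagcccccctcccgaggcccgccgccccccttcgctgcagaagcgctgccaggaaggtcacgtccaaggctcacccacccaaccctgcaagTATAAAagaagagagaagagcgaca
Cartpt promoter, chr13:99900684-99900933 (- strand): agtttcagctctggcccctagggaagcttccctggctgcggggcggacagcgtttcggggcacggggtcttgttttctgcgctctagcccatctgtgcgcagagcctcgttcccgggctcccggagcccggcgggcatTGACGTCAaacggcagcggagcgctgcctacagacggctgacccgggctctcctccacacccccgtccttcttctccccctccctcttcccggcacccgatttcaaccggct
Npy promoter, chr6:49822460-49822709 (+ strand): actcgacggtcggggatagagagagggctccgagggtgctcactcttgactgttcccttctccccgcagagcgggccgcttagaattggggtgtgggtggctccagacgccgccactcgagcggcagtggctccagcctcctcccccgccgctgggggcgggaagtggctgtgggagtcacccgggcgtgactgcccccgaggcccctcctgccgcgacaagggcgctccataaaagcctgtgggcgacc

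A STAT motif, a FoxO motif, a cAMP response element, its shorter form and a TATA box were searched on both strands in these windows and in the same window of 32851 RefSeq promoters. The TATA box letters TATAAA, found in 12.4% of the promoters, lie at positions -25 to -20 from the start of Pomc. The full cAMP response element TGACGTCA, found in 1.55%, lies at positions -112 to -105 of Cartpt. It holds the shorter form TGACG on each strand, a match that 17.8% of the promoters have. The STAT motif TTCNNNGAA (7.02%) and the FoxO motif GTAAACA (3.17%) are in none of the 3 windows, and the Npy window holds no match to any of the motifs. The windows are 60.0% (Pomc), 66.8% (Cartpt) and 69.2% (Npy) G and C, with 15, 22 and 21 CpG sites. A match is only a description of the letters.

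All 4 probes were detected on all 8 arrays. The arrays had median raw intensities of 117.2 to 127.5 and detected 13608 to 14776 of the 25697 probes (53.0% to 57.5%). Values below are normalized log2 signals unless raw intensity is named, and differences are tested with limma over 15494 detected probes, with p adjusted by the Benjamini-Hochberg method over all of them. STZ replicate 2 stands apart by transcripts of the pituitary hormones, among them growth hormone (Gh, 14.98 against 4.36 to 6.71 on the other 7 arrays) and prolactin (Prl, 14.93 against 4.43 to 9.39). Each test of Pomc, Cartpt and Npy that uses the STZ group is therefore also given without that array, from arrays normalized and fitted anew. Results of other genes use all 8 arrays unless the removal of an array is named.

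With all arrays, 0 of the 4 probes passed at an adjusted p of 0.05 in STZ against saline in the limma fit, where 4.29% of all probes passed, and 2 of the 4 had an unadjusted p under that value. In STZ with leptin against STZ, 2 of the 4 passed, both of Cartpt and both higher with leptin, where 5.62% of all probes passed and 2.16% passed as higher. In STZ with leptin against saline 0 of 4 passed in limma and 0 had an unadjusted p under the threshold, against 2.03% of all probes called. When STZ replicate 2 was left out, 2 of the 4 probes passed as lower in STZ than in saline (Pomc and the second Cartpt probe), where 3.04% of all probes passed and 0.118% passed as lower. In STZ with leptin against STZ without that array, 3 of 4 passed as higher (Pomc and both Cartpt probes), where 3.59% of all probes passed and 1.51% passed as higher. In STZ with leptin against saline, fitted in the same way, 0 of 4 passed in limma, 0 at an unadjusted p, where 2.01% of all probes passed. The first and second comparisons share the STZ arrays, so a low or high STZ array shifts them in opposite directions.

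**Figure D1:**
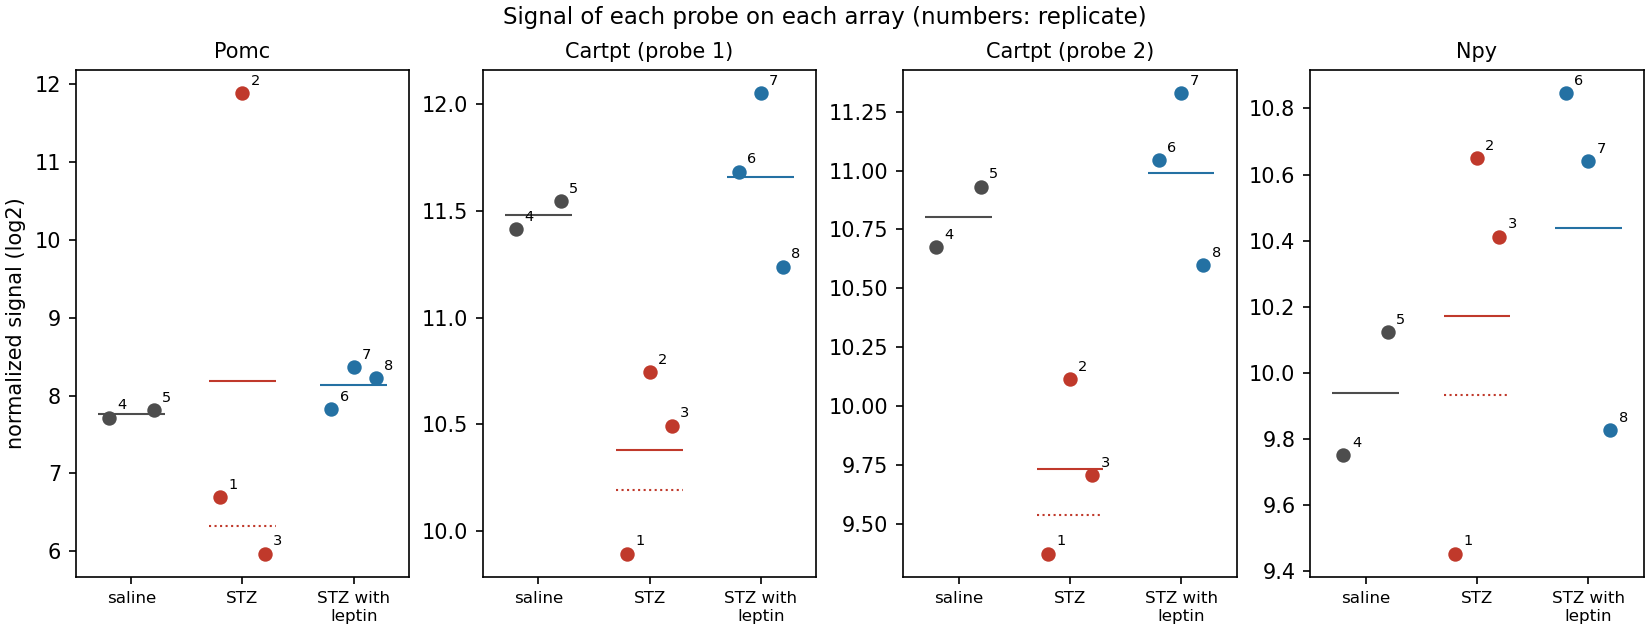
Normalized log2 signal (vertical axis, a separate scale in each panel) of the Pomc, Cartpt and Npy probes on each array, by group. Points are arrays with their replicate number, solid lines are group means and the dotted line is the STZ mean without replicate 2. Both Cartpt probes have all 3 STZ arrays below all other arrays, Pomc has STZ replicate 2 at 11.88 and the other STZ arrays lowest, and Npy groups overlap.

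Pomc was lowest in STZ replicates 1 and 3 and highest in STZ replicate 2. Its normalized signal was 6.69, 11.88 and 5.97 in STZ replicates 1, 2 and 3. It was 7.72 and 7.81 in saline, and 7.83, 8.37 and 8.22 in STZ with leptin. Raw intensities were 194.1, 3915.3 and 134.6 in STZ, 278.7 and 292.4 in saline, and 280.8, 389.4 and 390.5 with leptin. The STZ range therefore contained both other groups, and only STZ replicate 2 lay above them.

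With all 8 arrays the Pomc difference between STZ and saline was 0.42 ± 1.40 (moderated SE, n = 3 and 2, adjusted p = 0.93 in limma). Its 95% interval of -2.76 to 3.59 leaves the direction undetermined. The difference between STZ with leptin and STZ was -0.04 ± 1.25 (n = 3 and 3, adjusted p = 0.99 in limma), with an interval of -2.88 to 2.80. The STZ group mean was 8.18 ± 3.22 (SD, n = 3), against 7.76 ± 0.07 in saline (SD, n = 2) and 8.14 ± 0.28 with leptin (SD, n = 3).

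Without STZ replicate 2, Pomc was lower in STZ than in saline and higher with leptin than in STZ, and both calls were lost when certain further arrays were left out. The 2 remaining STZ arrays had a mean of 6.33 ± 0.51 (SD, n = 2). In the fit of the 7 arrays Pomc fell by 1.44 ± 0.27 on the log2 scale against saline (SE, n = 2 and 2, 2.70-fold lower, adjusted p = 0.029 in limma), and the groups were 1.03 apart. With leptin it rose by 1.82 ± 0.25 against STZ (SE, n = 3 and 2, 3.52-fold higher, adjusted p = 0.0074 in limma), and the groups were 1.14 apart. Leaving out STZ replicate 3, saline replicate 4 or saline replicate 5 as well ended the call against saline (adjusted p = 0.12, 0.17 and 0.20 in limma), and leaving out STZ replicate 3 ended the call with leptin (adjusted p = 0.051). In these fits 1 group is down to a single array, which is assumed to vary like the others, and the differences stayed between -1.80 and -1.08 against saline and between 1.46 and 2.19 with leptin over all further arrays left out.

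The size of the Pomc change differed between ways of processing. On the authors' processed log2 values without STZ replicate 2, the difference was -0.89 ± 0.17 between STZ and saline (SE, adjusted p = 0.031 in limma) and 1.18 ± 0.16 between STZ with leptin and STZ (SE, adjusted p = 0.0052 in limma). Both kept their direction and their side of the threshold. The lowest raw intensity of Pomc, 134.6 in STZ replicate 3, lay near the array medians, and its part in the size was not tested.

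The Pomc value of STZ replicate 2 came with pituitary transcripts. Of 15 pituitary genes listed, 12 had a probe and 6 were measured. These 6 are Gh, Prl, Cga, Tshb, Lhb and the receptor for thyrotropin-releasing hormone (Trhr). Trhr did not follow the hormones. It was detected on all 8 arrays and read 7.10 on STZ replicate 2, against 6.92 to 8.28 on the other 7. On STZ replicate 2 the common alpha subunit of the glycoprotein hormones (Cga) read 13.27, the beta subunit of thyroid-stimulating hormone (Tshb) 11.14 and that of luteinizing hormone (Lhb) 10.28. The highest values of the other 7 arrays were 8.21, 5.75 and 5.50. The beta subunit of follicle-stimulating hormone (Fshb) and the receptors for gonadotropin-releasing hormone (Gnrhr) and growth hormone-releasing hormone (Ghrhr) were detected on STZ replicate 2 and on no other array. The pituitary transcription factors Tbx19, the corticotroph factor, Pitx1 and Hesx1 were detected on no array. Snap25 and Nefl, listed here as genes of neurons, were likewise detected on no array. A probe without detection therefore does not show that a transcript was absent.

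The summed linear signal of the 6 measured pituitary genes was 337.1, 77052.1 and 670.7 in STZ replicates 1, 2 and 3. It was 1267.5 and 723.4 in saline and 418.4, 634.7 and 544.8 with leptin. Both saline arrays lay above all 3 leptin arrays in this sum, whereas in Pomc both lay below them. STZ replicate 1 had the lowest sum and STZ replicate 3 a sum above every leptin array, while both were low in Pomc. The sum includes Trhr, which was its largest term on all 3 leptin arrays (7.67, 8.28 and 8.15 on the log2 scale). Between groups, 0 of the 6 passed in any of the 3 comparisons in limma, and at most 1 had an unadjusted p under 0.05. That 1 was Trhr, higher with leptin than in STZ by 0.79 ± 0.23 (SE, adjusted p = 0.099 in limma). The median difference of the 6 genes was 1.43 for STZ against saline and -2.20 for STZ with leptin against STZ. On the 7 other arrays these medians were -0.66 and -0.16, against -0.07 and 0.003 over all probes. There all 6 genes were lower in STZ than in saline, as Pomc was, from -1.49 (Cga) to -0.33 (Lhb), and 0 passed. Cga read 6.40 and 6.96 in STZ replicates 1 and 3, 8.21 and 8.11 in saline, and 4.82, 7.61 and 7.22 with leptin. With leptin against STZ, Tshb and Trhr were higher there (0.43 and 0.72), as Pomc was, and Gh, Prl, Lhb and Cga were lower. The part of pituitary RNA in the Pomc values was not tested.

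**Figure D2:**
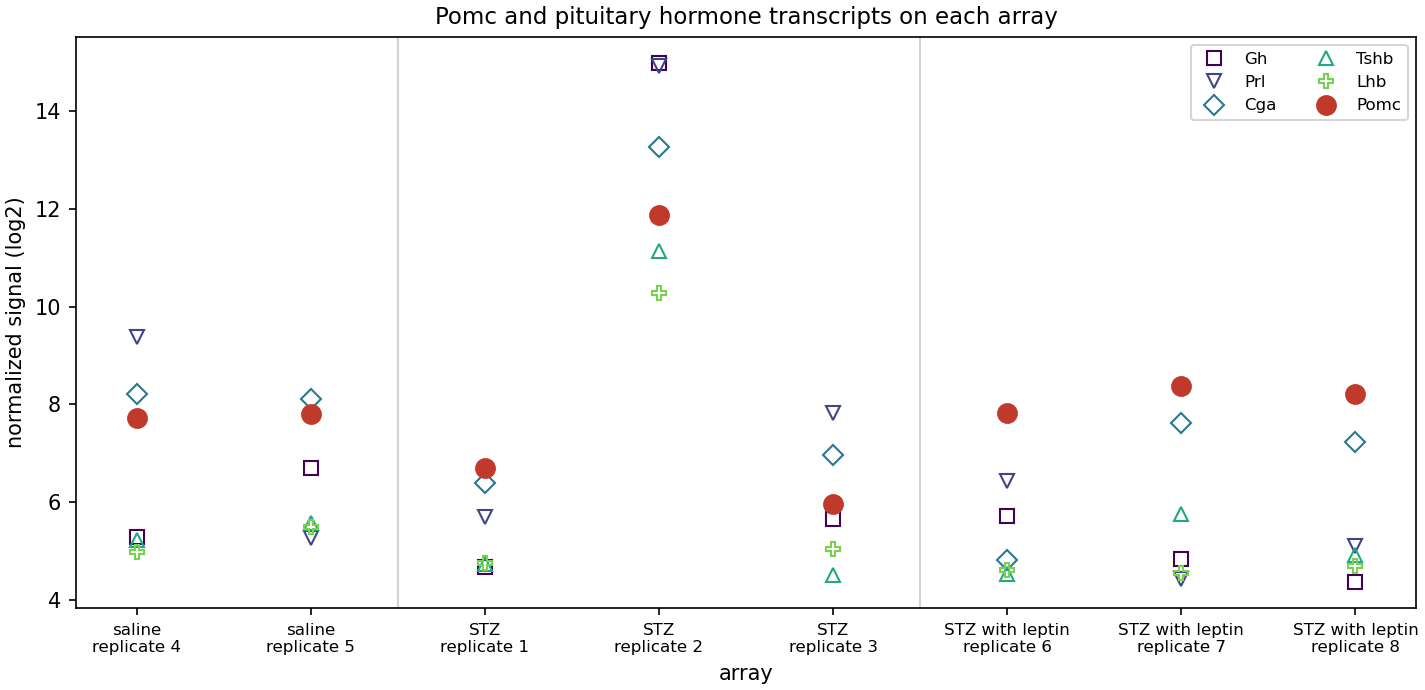
Normalized log2 signal (vertical axis) of Pomc and 5 pituitary hormone genes on each of the 8 arrays (horizontal axis, groups separated by lines). Filled circles are Pomc and open symbols the hormone genes. On STZ replicate 2 all 6 genes are above 10, and on the other arrays Pomc lies between 5.97 and 8.37.

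Cartpt was lower in every STZ array than in every saline or leptin array, on both probes. The first probe read 9.89, 10.75 and 10.49 in STZ, 11.41 and 11.55 in saline, and 11.68, 12.05 and 11.24 with leptin. The second probe read 9.37, 10.11 and 9.70 in STZ, 10.68 and 10.93 in saline, and 11.05, 11.33 and 10.60 with leptin. STZ replicate 1 was lowest and leptin replicate 7 highest on both. The probes thus ordered the groups alike, although the second was dimmer throughout, with raw intensities of 783 to 2678 against 1083 to 4446.6 for the first. Both read the same gene on the same arrays, so their likeness is not independent evidence of a group difference. How many of all probes separate groups without overlap was not counted, for Cartpt or for any other gene described here as separated.

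Against saline, the first Cartpt probe was 2.15-fold lower in STZ, a difference of -1.10 ± 0.29 (SE, n = 3 and 2, 95% interval -1.75 to -0.45) that missed the threshold (adjusted p = 0.079 in limma). The second probe differed by -1.07 ± 0.26 (SE, adjusted p = 0.060 in limma). The groups were 0.67 apart on the first probe. After removal of STZ replicate 2 the difference of the first probe was -1.29 ± 0.29 (SE, n = 2 and 2, adjusted p = 0.066 in limma). That of the second was -1.27 ± 0.25, which passed (SE, adjusted p = 0.038 in limma), a call lost without STZ replicate 1 or 3, saline replicate 4 or 5 or leptin replicate 6 as well (adjusted p from 0.071 to 0.28), and under cyclic loess, with no filter on dim probes and with array weights (adjusted p = 0.068, 0.072 and 0.053). Only 0.31% of all probes passed as lower in STZ with all arrays.

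With leptin, Cartpt rose against STZ. The first probe was 2.43-fold higher, by 1.28 ± 0.26 (SE, n = 3 and 3, 95% interval 0.70 to 1.86, adjusted p = 0.022 in limma), and the second was 2.40-fold higher, by 1.26 ± 0.24 (SE, adjusted p = 0.015 in limma). The groups were 0.49 apart on the first probe. When that comparison was made without STZ replicate 2 the rises were 1.46 ± 0.27 (SE, 2.76-fold, adjusted p = 0.026 in limma) and 1.46 ± 0.23 (SE, adjusted p = 0.015 in limma). The second probe's call, like the first's, was lost without STZ replicate 3, leptin replicate 6 or leptin replicate 7 (adjusted p = 0.066, 0.056 and 0.056 in limma). The call of the first probe was lost without STZ replicate 3, leptin replicate 6 or leptin replicate 7 (adjusted p = 0.069, 0.069 and 0.074 in limma), with the difference between 1.05 and 1.49 over all single arrays left out. Once STZ replicate 2 was out, the first probe's call was lost without any further array except leptin replicate 8 (adjusted p from 0.055 to 0.14).

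Npy did not separate the groups. It read 9.45, 10.65 and 10.41 in STZ, 9.75 and 10.12 in saline, and 10.85, 10.64 and 9.83 with leptin. The group means were 10.17 ± 0.63 in STZ (SD, n = 3), 9.94 ± 0.26 in saline (SD, n = 2) and 10.44 ± 0.54 with leptin (SD, n = 3). STZ replicate 1 was the lowest array and leptin replicate 6 the highest, and every pair of groups overlapped.

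The Npy difference was 0.23 ± 0.39 for STZ against saline (SE, adjusted p = 0.84 in limma), with a 95% interval of -0.65 to 1.11. For STZ with leptin against STZ it was 0.27 ± 0.35 (SE, adjusted p = 0.74 in limma), with an interval of -0.52 to 1.05. On 7 arrays, without STZ replicate 2, the values were -0.0034 ± 0.40 and 0.50 ± 0.37 (SE, adjusted p = 1.00 and 0.51 in limma). A rise or fall within these intervals was not detectable with these arrays.

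**Figure D3:**
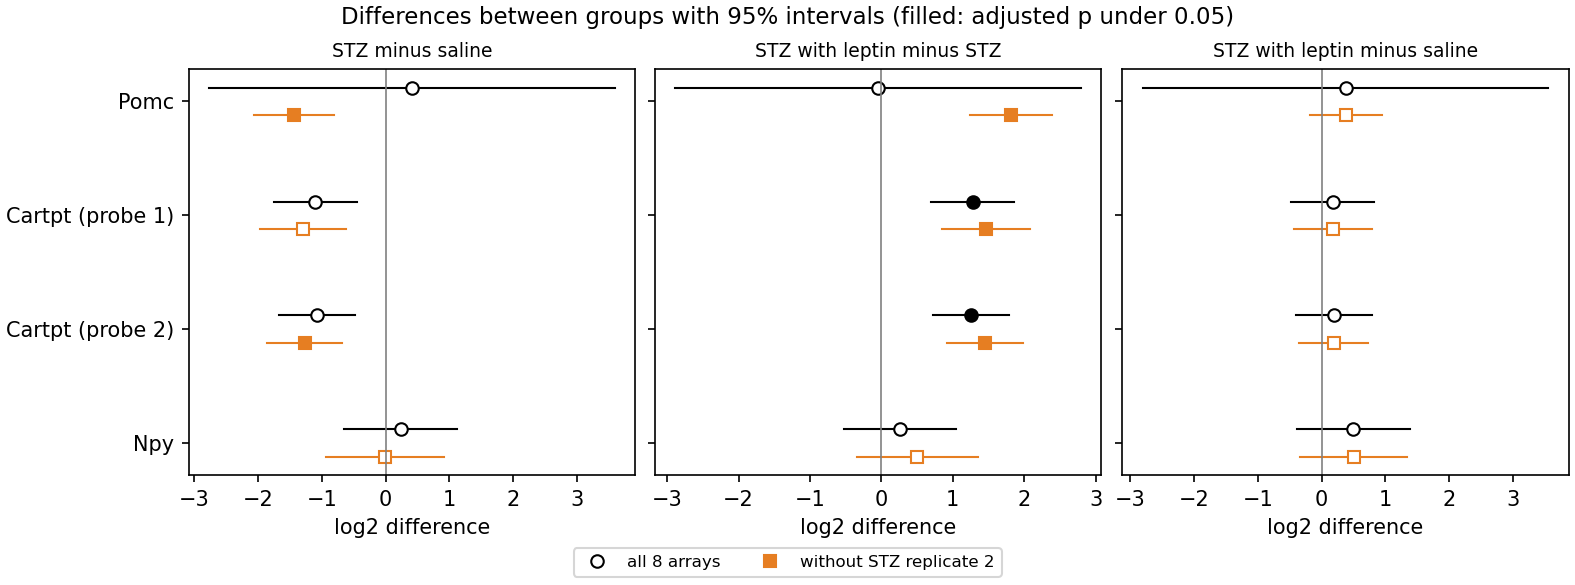
Log2 difference (horizontal axis) of each probe of Pomc, Cartpt and Npy in the 3 comparisons, with 95% intervals as lines. Black circles use all 8 arrays and orange squares leave out STZ replicate 2, and filled symbols have an adjusted p under 0.05. The Pomc interval of -2.76 to 3.59 for STZ minus saline narrows to -2.06 to -0.81 without that array, the second Cartpt probe passes there without it, and every Npy interval spans 0.

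Between STZ with leptin and saline, none of the 3 genes passed in limma. Pomc differed by 0.38 ± 0.25 without STZ replicate 2 (SE, 95% interval -0.19 to 0.95, adjusted p = 0.61), and its lowest leptin array lay 0.02 above its highest saline array. The first Cartpt probe differed by 0.18 ± 0.29 (SE, 95% interval -0.47 to 0.83, adjusted p = 0.87), which as a fold runs from 0.72 to 1.77. Npy differed by 0.50 ± 0.39 (SE, 95% interval -0.38 to 1.38, adjusted p = 0.71), or from 0.77-fold to 2.60-fold. These intervals do not show that the levels were equal.

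In order of group means, Cartpt ran from STZ to saline to STZ with leptin on both probes, and saline and leptin overlapped. Without STZ replicate 2, Pomc ran in the same order, with the lowest leptin array only 0.02 above the highest saline array. For Npy, saline was lowest and leptin highest with all arrays, and no neighbours in that order differed beyond their spread.

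**Figure D4:**
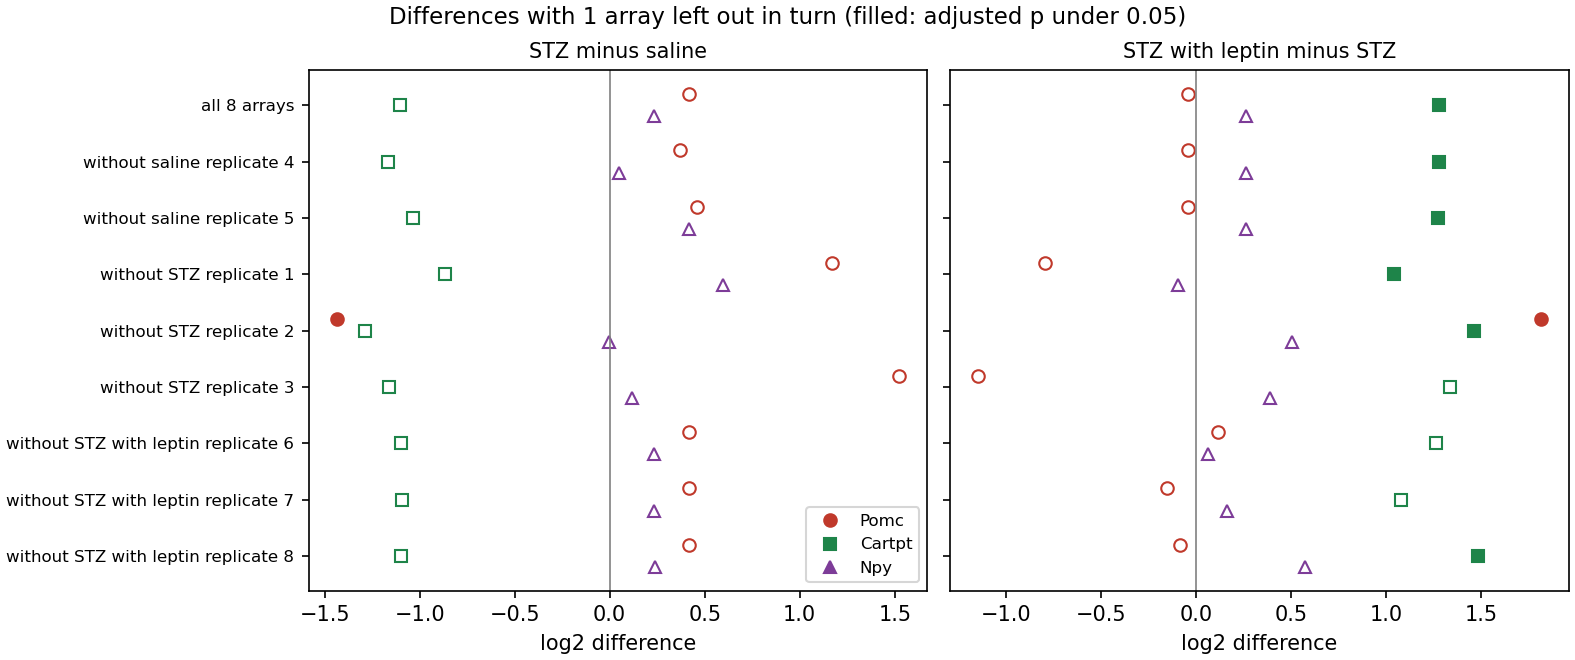
Log2 difference (horizontal axis) of Pomc, the first Cartpt probe and Npy in 2 comparisons when each array in turn is left out (vertical axis); filled symbols have an adjusted p under 0.05. Pomc passes only in the row without STZ replicate 2 (-1.44 and 1.82), where it changes side, as it also does with leptin without leptin replicate 6 (0.12, not passing). Cartpt stays on its side in every row.

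The receptors on which these peptides act showed no change that passed. Of 12 listed genes for melanocortin and opioid receptors, their accessory proteins and antagonists, 8 had a probe and 3 were measured, and 0 passed in any comparison in limma, also at an unadjusted p under 0.05. The receptor for alpha-MSH through which loss of melanocortin signalling causes obesity, Mc4r, differed by -0.24 ± 0.21 between STZ and saline and by -0.05 between STZ with leptin and STZ (SE, adjusted p = 0.67 and 0.92 in limma). Mc3r, the other central melanocortin receptor, differed by -0.34 ± 0.18 and 0.17 (SE, adjusted p = 0.46 and 0.63 in limma). The median of the list was -0.24 and -0.05, against -0.09 and 0.03 over all probes. The third measured gene, Mc5r, was detected on 2 arrays and kept only through STZ replicate 2, where it read 6.01. Without that array 2 genes were measured, with medians of -0.34 and 0.11, against -0.07 and 0.003 over all probes, and 0 passed. No probe was named Oprm1, the opioid receptor for beta-endorphin, or Agrp, the antagonist made with Npy, and neither was analysed here.

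Of 8 further NPY family and receptor genes, all with a probe, 4 were measured and 0 passed in any comparison in limma, with 1 at an unadjusted p under 0.05. That one was Npy2r, the presynaptic receptor, which differed by -0.46 ± 0.27 between STZ and saline and by 0.61 ± 0.25 between STZ with leptin and STZ (SE, adjusted p = 0.51 and 0.21 in limma). The feeding-related receptors Npy1r and Npy5r differed by -0.32 and -0.36 between STZ and saline (adjusted p = 0.59 and 0.43 in limma). With leptin against STZ they differed by 0.35 and 0.26 (adjusted p = 0.40 and 0.46 in limma). The median of the list was -0.34, then 0.30, against -0.09 and 0.03 over all probes.

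The enzymes and granins that process prohormones were measured for 11 of 14 listed genes, and 1 passed in STZ against saline (Prcp, higher), 1 in STZ with leptin against STZ (Scg5, lower) and both in STZ with leptin against saline. Among all probes 4.29%, 5.62% and 2.03% passed in these 3 comparisons. Prcp, a carboxypeptidase that removes the last residue of alpha-MSH, read 9.89, 10.25 and 9.67 in STZ, 8.93 and 8.81 in saline, and 9.79, 9.83 and 9.70 with leptin. It rose in STZ by 1.07 ± 0.18 against saline (SE, adjusted p = 0.0099 in limma), and with leptin it lay 0.90 ± 0.18 above saline (SE, adjusted p = 0.040 in limma). Every STZ and leptin array was above both saline arrays. Both calls were lost without saline replicate 4 or 5 (adjusted p = 0.082 and 0.12 against STZ, 0.24 and 0.33 against leptin), which leaves 1 saline array. The call against leptin was lost without leptin replicate 6, 7 or 8 as well (adjusted p = 0.12, 0.11 and 0.070), and with no filter on dim probes (adjusted p = 0.053).

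Scg5, the 7B2 chaperone of the prohormone convertase PC2, was lower with leptin than in STZ by -0.62 ± 0.14 (SE, adjusted p = 0.039 in limma). It was also lower with leptin than in saline, by -0.88 ± 0.16 (SE, adjusted p = 0.025 in limma). The first call was lost without STZ replicate 2 or 3, saline replicate 4 or 5, or leptin replicate 6 or 7 (adjusted p = 0.091, 0.13, 0.071, 0.070, 0.14 and 0.11), and the second without saline replicate 4 or 5 or leptin replicate 6 or 7 (adjusted p = 0.15, 0.26, 0.089 and 0.066). Median centring ended the first call (-0.44, adjusted p = 0.17), and cyclic loess and a fit of the 2 groups alone ended both (adjusted p = 0.068 and 0.072 for the first, 0.053 and 0.052 for the second). Pam, which amidates peptides such as alpha-MSH, differed by 0.46 ± 0.18 between STZ with leptin and STZ (SE, adjusted p = 0.20 in limma). Pcsk1, the convertase that makes the first cuts in proopiomelanocortin, was detected on no array, which does not show its absence. No probe was named Pcsk2 or Cpe.

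Leptin signalling was represented by 15 measured of 21 listed genes, of which 2 rose in STZ, 1 fell with leptin against STZ and 1 was higher with leptin than in saline. The shares of all probes that passed in these comparisons, in either direction, were 4.29%, 5.62% and 2.03%. Socs3, a feedback inhibitor of leptin and cytokine receptors, read 9.68, 11.08 and 10.64 in STZ, 6.59 and 6.74 in saline, and 8.68, 8.62 and 8.43 with leptin. The groups did not overlap. It rose by 3.80 ± 0.34 in STZ (SE, adjusted p = 0.00026 in limma) and with leptin fell by 1.89 ± 0.30 against STZ (SE, adjusted p = 0.0079 in limma). It stayed 1.91 ± 0.34 above saline (SE, adjusted p = 0.022 in limma), a call lost without STZ replicate 3, saline replicate 4 or 5, or leptin replicate 6 or 7 (adjusted p = 0.052, 0.22, 0.16, 0.075 and 0.058). It was also lost with no background correction (1.37, adjusted p = 0.070), on the authors' values (1.37, adjusted p = 0.069) and with no filter on dim probes (adjusted p = 0.053).

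Stat3, the transcription factor that leptin activates upstream of Pomc, rose by 1.08 ± 0.22 in STZ (SE, adjusted p = 0.028 in limma). That call was lost without STZ replicate 2 (adjusted p = 0.074) and without saline replicate 4 or 5 (adjusted p = 0.14 and 0.25). With leptin against STZ, Stat3 differed by -0.72 ± 0.20 and did not pass (SE, adjusted p = 0.076 in limma). It passed there with a robust trend and with the mean of its probes (adjusted p = 0.041 and 0.045 in limma). Foxo1, which represses Pomc and is restrained by insulin and leptin signalling, differed by 0.02 for STZ against saline and 0.15 for STZ with leptin against STZ (adjusted p = 0.98 and 0.69 in limma). The leptin receptor, Lepr, was detected on no array, which does not show its absence. The list median was 0.02 for STZ against saline and -0.23 for STZ with leptin against STZ.

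**Figure D5:**
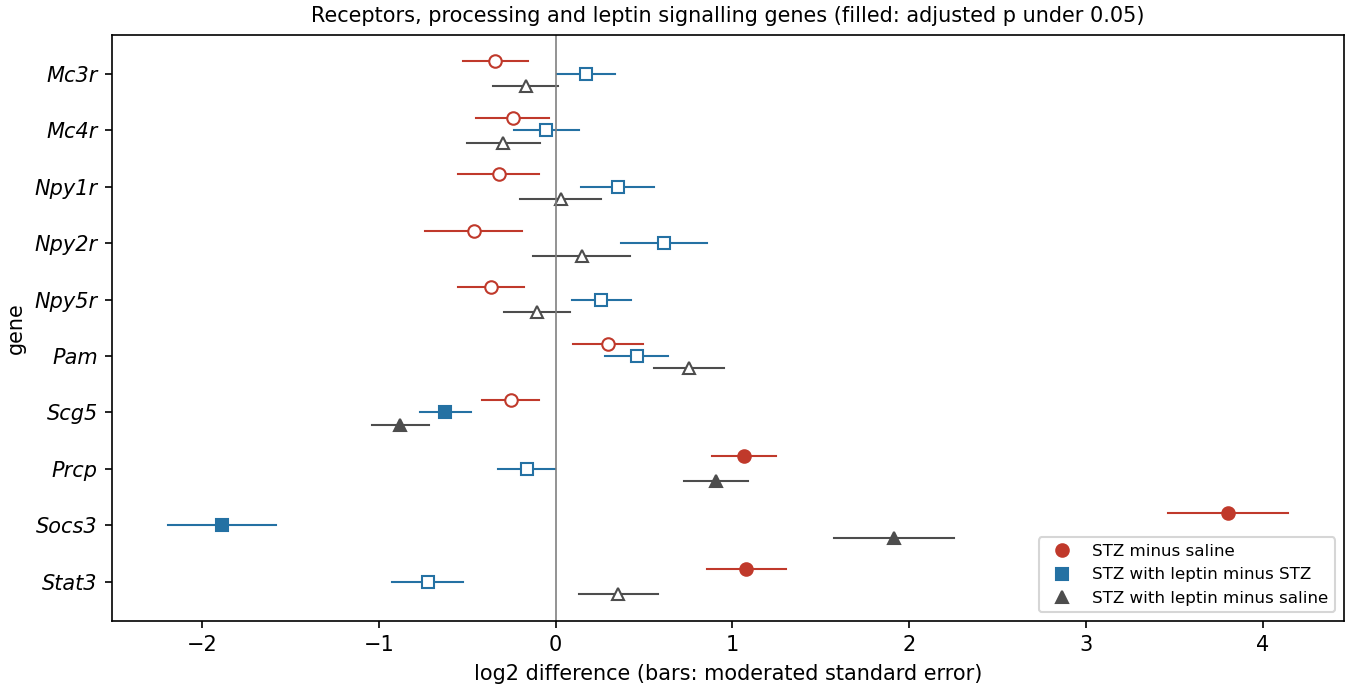
Log2 difference (horizontal axis, bars are moderated SE) of receptor, processing and leptin signalling genes named beside Pomc, Cartpt and Npy, in the 3 comparisons with all 8 arrays. Filled symbols have an adjusted p under 0.05: Socs3 in all 3, Prcp and Scg5 in 2 each, and Stat3 in STZ minus saline.

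Signals of pituitary and choroid plexus genes differed between the arrays, and the Cartpt and Npy patterns were set beside markers of tissues and cells. Of 19 genes listed for arcuate neurons 10 were measured, and 0 passed in any comparison in limma, with at most 1 at an unadjusted p under 0.05. The list medians were -0.13 for STZ against saline and 0.07 for STZ with leptin against STZ. The list also holds genes of neurons in general, such as Slc17a6, Slc32a1 and Gad1, so its median does not measure arcuate content. Tbx3, a transcription factor of arcuate neurons, differed by -0.19 and 0.34 (adjusted p = 0.81 and 0.50 in limma). Isl1, a LIM factor that activates Pomc, differed by -0.14 and 0.39 (adjusted p = 0.76 and 0.16 in limma). With leptin against STZ, Nkx2-1 and Ghsr differed by 0.20 and 0.25 and Corin by -0.34 (adjusted p = 0.68, 0.59 and 0.56 in limma).

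Of 14 measured among 18 listed hypothalamic peptides and factors, 3 rose with leptin against STZ, all peptides, where 2.16% of all probes passed as higher. Pmch, the melanin-concentrating hormone precursor, rose by 0.88 ± 0.16 (SE, adjusted p = 0.014 in limma), a call lost without leptin replicate 6 (adjusted p = 0.056). Gal, the galanin precursor, rose by 1.41 ± 0.29 (SE, adjusted p = 0.023 in limma), a call lost without STZ replicate 3 or leptin replicate 6 or 7 (adjusted p = 0.077, 0.062 and 0.072). Hcrt, the orexin precursor, rose by 1.20 ± 0.29 (SE, adjusted p = 0.045 in limma), a call lost without STZ replicate 1 or 3, saline replicate 4 or 5, or leptin replicate 6 or 7 (adjusted p from 0.074 to 0.14), and under cyclic loess, no filter on dim probes, a robust trend or the 2 groups alone (adjusted p from 0.054 to 0.081). The summed linear signal of the 14 genes was 25452.5 to 32570.1 in STZ, 26040.9 and 33042.8 in saline, and 34982.2 to 47197.1 with leptin. STZ replicate 1 and saline replicate 4 were the lowest 2 arrays in this sum and in Npy. The part of the dissection in the Cartpt and Npy values was not tested.

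Markers of the choroid plexus, the epithelium that makes cerebrospinal fluid, differed widely between arrays of the STZ group. Their summed linear signal over 6 measured of 8 genes was 1715.6, 31917.1 and 32076.2 in STZ, 15077 and 31210.6 in saline, and 1881.7, 2048.1 and 5129.2 with leptin. STZ replicate 1, low in this sum, and STZ replicate 3, high in it, were both low in Pomc and Cartpt. The leptin arrays were low in this sum and high in Cartpt, and 0 of the 6 genes passed in any comparison in limma, with 5 at an unadjusted p under 0.05 in each comparison with leptin.

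Markers of neurons were measured for 7 of 9 listed genes, and 1 passed, with leptin against STZ, where 5.62% of all probes passed. Map2, a dendritic microtubule protein, was 0.54 higher with leptin than in STZ (adjusted p = 0.048 in limma), a call lost without STZ replicate 2 or 3, either saline array or any of the leptin arrays (adjusted p from 0.082 to 0.14), and with the 2 groups alone or the mean of its probes (adjusted p = 0.093 and 0.062). Rbfox3, which encodes the nuclear antigen NeuN, differed by -0.43 ± 0.14 between STZ and saline and by 0.49 between STZ with leptin and STZ (SE, adjusted p = 0.19 and 0.065 in limma), the same signs as Cartpt. The latter passed in 7 of 12 other settings (adjusted p from 0.015 to 0.048). Nefm, the medium neurofilament, differed by -0.48 ± 0.15 and 0.30 (SE, adjusted p = 0.16 and 0.27 in limma). The list median was -0.18 and -0.05, and the summed linear signal was 36968.5 to 49915.6 in STZ, 45426.5 and 48974 in saline, and 41352.4 to 44585.2 with leptin.

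Markers of microglia, the macrophages of the brain, were measured for 4 of 5 listed genes, of which 2 rose in STZ. All probes passed at a share of 4.29% in STZ against saline, 5.62% with leptin against STZ and 2.03% with leptin against saline. Cx3cr1 and P2ry12 did not pass against saline, at 0.83 ± 0.22 and -0.13 ± 0.22 (SE, adjusted p = 0.088 and 0.85 in limma), so the markers did not all move together. Aif1 rose by 2.86 ± 0.33 and Tmem119 by 1.30 ± 0.18 (SE, adjusted p = 0.0011 and 0.0035 in limma), and Tmem119 no longer passed without saline replicate 4 (adjusted p = 0.060). With leptin against STZ, Tmem119 fell by 0.95 and P2ry12 fell by 2.32 (adjusted p = 0.011 and 0.00028 in limma). Against saline, Aif1 was 2.13 higher with leptin and P2ry12 was lower by -2.45 (adjusted p = 0.011 and 0.00057 in limma), and the Aif1 call was lost without saline replicate 4 or 5 (adjusted p = 0.15 and 0.078). The summed linear signal of the 4 genes was 4366.7 to 5114.7 in STZ, 2230 and 2240.8 in saline, and 2252.2 to 2612.2 with leptin, so the arrays low in Cartpt were the high ones here. The leptin sums lay near saline although Aif1 was higher and P2ry12 lower, so the sum does not measure microglial content.

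Of 5 measured astrocyte markers 1 passed, Gfap, the intermediate filament of reactive astrocytes. It rose by 1.64 ± 0.32 in STZ and fell by 1.32 with leptin against STZ (SE, adjusted p = 0.021 and 0.031 in limma), where 4.29% and 5.62% of all probes passed. Neither call held without STZ replicate 2 (adjusted p = 0.072 and 0.10). The rise was also lost without either saline array (adjusted p = 0.16 for both), and the fall without STZ replicate 1 or 3, either saline array or leptin replicate 6, with no filter on dim probes or with the 2 groups alone (adjusted p from 0.055 to 0.062). Of 4 measured oligodendrocyte markers 0 passed in any comparison in limma, and 0 had an unadjusted p under 0.05. The part of neuronal and glial content in the member values was not tested.

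The genes most like each member were those with the highest Pearson correlation over arrays among 10702 other genes, a description over few points that share their arrays. For Pomc over 8 arrays these were H4c6 (0.947), Gfpt2 (0.936), Tshb (0.928), Mon2 (0.925) and Hnrnpm (0.912), all highest on STZ replicate 2. Over the 7 arrays without it they were Slc9a8 (0.976), Tjp1 (0.971), Gpr17 (0.971), Gdf10 (0.970) and Toe1 (0.969). The 2 sets share no gene. Gpr17, a receptor of oligodendrocyte precursors, read 8.70 to 9.22 in STZ and 9.47 to 9.54 in the other groups.

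For Cartpt the nearest over 8 arrays were Pptc7 (0.981), Wscd1 (0.970), Cplx2 (0.968), Nf1 (0.967) and 5730409E04Rik (0.966), and Pptc7, Cplx2 and Nf1 were again among the nearest 5 over 7 arrays, with Alyref2 (0.980) and H4c6 (0.978). Cplx2, which encodes the synaptic protein complexin 2, read 7.07 to 7.96 in STZ, 8.02 and 8.39 in saline, and 8.31 to 8.80 with leptin. For Npy the nearest were Spata24 (0.982), Fam174c (0.968), Rpl34 (0.967), Rpl37a (0.966) and Rpl30 (0.965) over 8 arrays. Spata24 and Fam174c (0.990 and 0.988) were also nearest over 7, with Clec2e, Rpl36al and Rpl34. Among the Npy neighbours Rpl34, Rpl37a and Rpl30 encode ribosomal proteins, and Rpl34 was lowest in STZ replicate 1 (11.76) and saline replicate 4 (12.18).

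Among the members themselves, Pomc and Cartpt correlated at 0.18 over 8 arrays and at 0.83 over the 7 without STZ replicate 2, where Cartpt was number 280 in Pomc's order. Cartpt and Npy correlated at 0.47 and 0.61, and Pomc and Npy at 0.39 and 0.18. These values hold the group differences in them and are given with no test.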

How the data were processed

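RNA of the 8 hypothalamic samples (300 ng each) was amplified and hybridised, per the labels' protocols. The deposited table gives a raw bead intensity per probe on a linear scale and, per the file headers, a detection p-value. The authors' processed table holds log2 values with a median of 6.90 per array; its software and background treatment are not given in the sources used here, and each column ranked probes as its own raw column did (Spearman correlation 1). Raw intensities were background-corrected and quantile-normalized with neqc (limma 3.58.1, R 4.3.3, offset 16). Probes with a detection p under 0.05 on at least 2 arrays were kept (15494 of 25697; 15248 without STZ replicate 2). The mean of each group was estimated in 1 limma fit with eBayes (residual df 5, or 4 without STZ replicate 2, and prior df 3.93). Benjamini-Hochberg adjustment ran over all kept probes, with no fold minimum. The number of arrays limits the precision. The probe table gave 1 symbol to 23978 probes, several to 0 and none to 1719; symbols were updated through Entrez identifiers. A gene with several probes is represented by its brightest. STZ replicate 3 carries the number 1 in its description, as STZ replicate 1 does, and was taken as STZ from its title.

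The named genes are the members with every probe, the 5 genes most correlated with each over 8 and over 7 arrays, a fixed set of receptors, processing enzymes, leptin signalling genes and pituitary hormones, and from fixed lists the members that passed or, where none did, those of lowest p. The members and lists were chosen with earlier results of these data known. Alternatives covered background correction, normalization, filters, weights, the choice of Cartpt probe, a replicate block, the authors' values and each array left out. The fits were tested on simulated data.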

Additional observations from a re-analysis of the deposited data

How the results depend on the processing

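The member differences (11 other settings for the second Cartpt probe, 12 for the others), 24 genes of the lists and the counts of probes that passed were recomputed under other settings and with each array left out. For Pomc the removal of STZ replicate 2 turned both differences into calls, at -1.44 (STZ against saline) and 1.82 (STZ with leptin against STZ); over all arrays left out the differences ran from -1.44 to 1.52 and from -1.15 to 1.82. Under the other settings on all arrays neither passed and the direction was not fixed: array weights gave -0.58 and 0.91, the replicate block 2.15 and -0.84. Cartpt in STZ against saline passed with array weights (-0.99, adjusted p = 0.013) and in no other setting or array left out, whereas its second probe also passed with no background correction, normexp, median centring, the authors' values, a robust trend, and without STZ replicate 2 or leptin replicate 8 (-1.01 to -1.27, adjusted p from 0.038 to 0.048). Cartpt in STZ with leptin against STZ ran from 1.05 to 1.49 with single arrays left out. Npy passed in none of its alternatives, and neither did any member in STZ with leptin against saline.

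Further settings run on the 7 arrays without STZ replicate 2 were added after seeing the data. There Pomc in STZ against saline missed the threshold with no filter on dim probes (-1.44, adjusted p = 0.060), and ran from -1.80 to -1.08 with a further array left out; with leptin against STZ it ran from 1.46 to 2.19. Cartpt in STZ against saline passed with no background correction (-1.23), normexp (-1.26), the authors' values (-1.23), a robust trend (-1.29), the 2 groups alone (-1.29) and the mean of both probes (-1.28), and ran from -1.59 to -0.99 with a further array left out. Cartpt with leptin against STZ missed it with no filter (1.46, adjusted p = 0.0502) and with the 2 groups alone (1.46, adjusted p = 0.058), and ran from 1.17 to 1.77. The causes were not tested.

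Whether the numbers in the descriptions pair the samples could not be told. Deviations from the group mean correlated between -0.22 and 0.09 for arrays with the same number, and between -0.32 and 0.32 for the others. The deviations of the 2 saline arrays mirror each other, so the signs of their correlations are not free. The numbers are not balanced over the groups, and STZ and saline share only number 2. Without STZ replicate 2 they share none, and a block then compares them only through the leptin arrays. A block on such numbers costs precision, so a call lost under it does not show that a difference is absent. A replicate block on these numbers gave Cartpt with leptin against STZ 1.29 (adjusted p = 0.0525 in limma). Without STZ replicate 2, the block gave -0.96 (adjusted p = 0.86) and 1.50 (adjusted p = 0.18) for Pomc, 1.49 (adjusted p = 0.24) for Cartpt with leptin and -1.35 (adjusted p = 0.61) and 1.51 (adjusted p = 0.19) for its second probe. Among the list genes the block ended the calls of Scg5 (adjusted p = 0.083 and 0.12), Prcp (0.052 and 0.080), Stat3 (0.13), Pmch (0.066), Hcrt (0.097), Gal (0.077), Map2 (0.19), Gfap (0.084 and 0.068), Tmem119 (0.061 and 0.067), and against saline Socs3 (0.0501) and Aif1 (0.054).

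The number of probes passing in STZ against saline, 664, became 332 with a detection p under 0.01, 1659 with array weights, 336 with the block and 277 to 1032 with 1 array left out. In STZ with leptin against STZ, 870 became 552, 1859, 474 and 484 to 1234. In STZ with leptin against saline, 314 became 183, 714 and, with 1 array left out, 111 to 426. The slide as a block was not run, since the headers used here name no slide. The raw Pomc intensity in STZ replicates 1 and 3 (194.1 and 134.6) was the closest of the members' values to the array medians of 117.2 to 127.5.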
